A study of Homo sapiens with 4 samples.

Results

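The genes described here are the transcriptional coactivators YAP1 and WWTR1 (the gene of TAZ), the DNA-binding factor TEAD1, the regulators LATS2, AJUBA, AMOTL1 and AMOTL2, and the target genes ANKRD1, CYR61 and CTGF. These 10 genes were taken as a fixed list from the 63856 genes of the count table by Ensembl identifier, and by symbol from the authors' normalized table. The list was chosen with earlier results of these data known. CYR61 and CTGF are named CCN1 and CCN2 in newer annotation. All 10 genes passed the filter on low counts, which left 15830 genes for testing. The cells sequenced were MCF10A, an immortalized line of human mammary epithelium that does not form tumours, as wild type cells (WT) and as cells with stable HSF1 overexpression, transduced with lentivirus carrying the HSF1 coding sequence in the pLVX-Puro vector and selected with puromycin (HSF1-pLVX). HSF1 is the transcription factor of the heat shock response. Each variant had 2 libraries, which the methods call biological replicates without saying whether they came from separate cultures or whether the transduced cells were a clone, so the p-values measure only the spread between these libraries. Both variants grew in the same medium with horse serum, insulin, hydrocortisone, EGF and, per the labels, cholera toxin. Libraries of the empty vector were not analysed here, so an effect of HSF1 and an effect of the vector, its selection or separate culture cannot be told apart.

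YAP and TAZ are sister proteins that do not bind DNA themselves and act on transcription mainly through the TEAD factors. In the Hippo pathway, the kinases MST1 and MST2 (genes STK4 and STK3) activate LATS1 and LATS2, which phosphorylate YAP and TAZ and keep them out of the nucleus. In epithelial cells the pathway is known to respond to cell density, cell shape and adhesion, and much of its control is on protein location and stability, which RNA-seq does not measure. Several targets of YAP and TAZ themselves restrain these coactivators, LATS2 and AMOTL2 among them.

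The libraries held between 18688109 and 24184285 counts. Values are given as CPM, a count relative to the total of its library after TMM normalization, and differences are log2 fold changes of HSF1-pLVX over WT from edgeR's quasi-likelihood test, with p-values adjusted by the Benjamini-Hochberg method over all 15830 genes. Genes with an adjusted p under 0.05 were called. With 2 libraries a variant, the smallest p of an exact permutation test of a single gene is 0.33. HSF1 itself was at 200.4 and 189 CPM in WT and at 982 and 999 CPM in HSF1-pLVX cells, so the libraries matched their labels. The 9 listed mammary epithelial markers, EPCAM, CDH1, TP63, LAMB3 and keratin genes, were detected in every library, although 7 of them were lower and 2, KRT5 and TP63, higher in HSF1-pLVX cells. Their summed level was 19034 and 18705 CPM in WT and 8785 and 9205 CPM in HSF1-pLVX cells, and the part of this shift in the results was not tested. Of 9 fibroblast markers, 4 held at most 3 counts in any library, namely COL1A2, COL3A1, LUM and THY1. The summed level of the 9 was 199 and 227 CPM in WT and 59.9 and 48.9 CPM in HSF1-pLVX cells, most of it from FAP, and its part in the results was not tested. The markers did not move together: of the 3 that passed the filter, FAP was lower, COL1A1 was not called (log2 fold change 0.19, edgeR, adjusted p = 0.353) and DCN was higher, with 1 and 3 counts in WT and 94 and 87 in HSF1-pLVX cells, at least 25.3-fold against a floor of 3 counts per library. In bulk RNA, fewer cells of a kind and less RNA per cell cannot be told apart.

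Of the 10 genes, 8 were lower, 1 was higher and 1 was not called in HSF1-pLVX cells. Among all tested genes, 33.2% were called lower and 32.7% higher, 65.9% in all, so that a call by itself is common in these data. At least 2-fold lower were 6 of the 10 genes, against 14.0% of all tested genes, and none of the 10 was at least 2-fold higher, against 14.9%. The median log2 fold change was -1.64 over the 10 genes and 0.02 over all tested genes. The falls were in the target genes, in TEAD1 and in LATS2, AMOTL1 and AMOTL2, which restrain YAP. The coactivators YAP1 and WWTR1 stayed within a log2 fold change of -0.23. The groups did not overlap for any of the 10 genes, 9 of them lower and 1 higher in HSF1-pLVX cells, as was also true of 83.1% of all tested genes (41.0% lower and 42.1% higher).

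**Figure D1:**
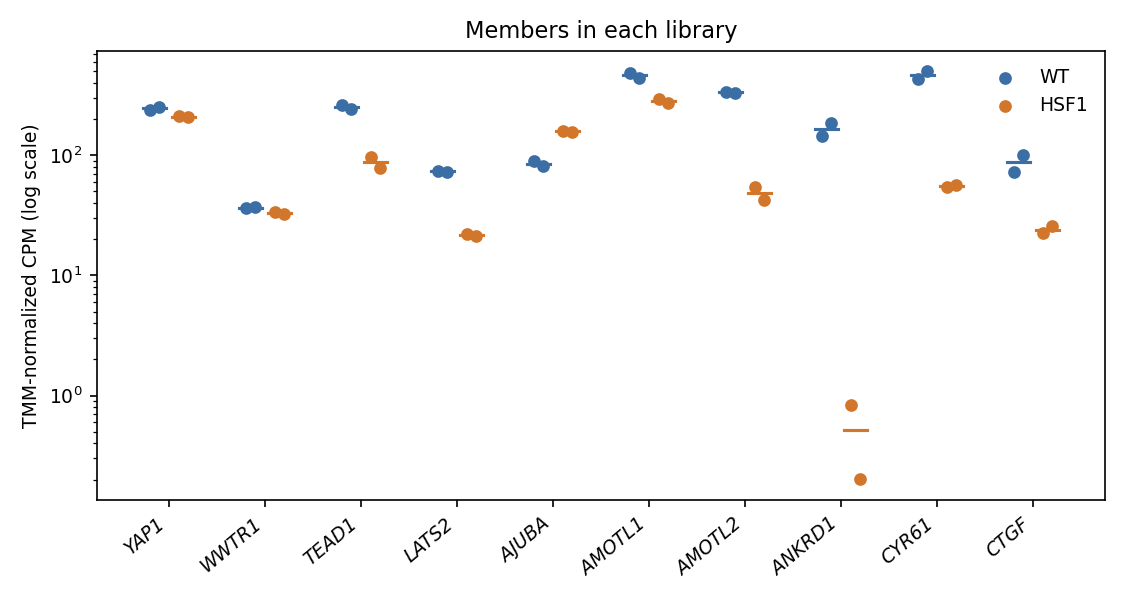
TMM-normalized CPM (vertical log axis) of the 10 genes in each of the 2 WT and 2 HSF1-pLVX (HSF1) libraries, with points for libraries and bars for group means. ANKRD1 went from 145 and 185 CPM to below 1 CPM, whereas YAP1 stayed between 207 and 252 CPM and WWTR1 between 32.5 and 36.9 CPM in all 4 libraries.

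YAP1 (ENSG00000137693.13, chromosome 11 of hg38, 102110461 to 102233423) was at 239.7 and 252 CPM in WT and at 212 and 207 CPM in HSF1-pLVX cells. The HSF1-pLVX libraries were slightly below both WT libraries. The log2 fold change was -0.23 ± 0.0880 (SE), with a 95% interval from -0.42 to -0.04 (adjusted p = 0.0327, edgeR's quasi-likelihood test). This call was lost under 7 of 10 alternatives, among them library size as the only normalization (adjusted p = 0.105), no filter on low counts (0.0750) and each library left out in turn (0.0568 to 0.169). WWTR1 (ENSG00000018408.14, chromosome 3, 149517235 to 149736714) was at 36.1 and 36.9 CPM in WT and at 33.5 and 32.5 CPM in HSF1-pLVX cells. Its log2 fold change of -0.14, with a 95% interval from -0.33 to 0.05, did not pass (edgeR, adjusted p = 0.166), nor did it under any alternative. The interval of neither coactivator reached a 2-fold change.

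Levels of different genes were compared per kilobase of annotated exon. YAP1 was at 39.1 ± 1.38 CPM per kilobase in WT and at 33.3 ± 0.566 in HSF1-pLVX (SD over 2 libraries), and WWTR1 at 4.34 ± 0.0629 and 3.92 ± 0.0901. The ratio of YAP1 to WWTR1 was 8.87 and 9.14 in the WT libraries and 8.46 and 8.53 in the HSF1-pLVX libraries. YAP1 was thus the more abundant coactivator transcript in all 4 libraries.

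TEAD1 (ENSG00000187079.16, chromosome 11, 12674591 to 12944483), which brings YAP and TAZ to DNA, was at 261 and 244 CPM in WT and at 96.9 and 78.3 CPM in HSF1-pLVX cells. Both HSF1-pLVX libraries were far below both WT libraries. The log2 fold change was -1.53 ± 0.107 (SE) (adjusted p = 1.59e-08, edgeR), a 2.88-fold lower level. The other TEAD genes moved unequally. TEAD2 had a log2 fold change of -0.77 (adjusted p = 3.47e-06) and TEAD3 one of -0.43 (adjusted p = 3.43e-04), and both were called lower. TEAD4 was called higher, with a log2 fold change of 0.65 (adjusted p = 5.39e-04), from 8.20 and 8.40 CPM in WT to 12.5 and 13.6 CPM in HSF1-pLVX cells.

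Per kilobase, the summed level of the 4 TEAD genes was 68.9 and 67.2 CPM in WT and 41.7 and 41.5 CPM in HSF1-pLVX cells. TEAD1 made up 36.8 and 35.4% of this sum in WT and 22.6 and 18.3% in HSF1-pLVX cells. In WT, TEAD1 and TEAD3 (36.6 and 38.0%) overlapped, and in HSF1-pLVX cells TEAD3 held the largest share, with 44.2 and 46.4%. This order rests on the division by length. In CPM, TEAD1 stayed above TEAD3 in both variants, with 96.9 and 78.3 against 56.2 and 58.7 in HSF1-pLVX cells. The share of TEAD4 went from 5.24 and 5.50% to 13.2 and 14.4%, and that of TEAD2 lay between 20.0 and 21.4% in all libraries.

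**Figure D2:**
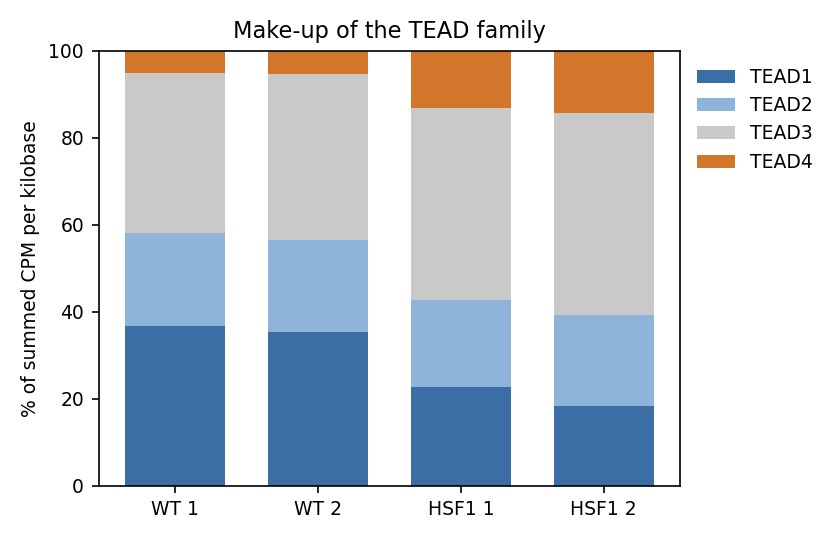
Shares of TEAD1 to TEAD4 in their summed CPM per kilobase of exon (vertical axis, %) in each library. The TEAD1 share was 36.1 ± 1.02% in WT and 20.5 ± 3.01% in HSF1-pLVX (SD over 2 libraries), while TEAD4 went from 5.37 ± 0.184% to 13.8 ± 0.859%.

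LATS2 (ENSG00000150457.8, chromosome 13, 20973032 to 21061547), a kinase that inhibits YAP and TAZ and is also their target gene, was at 73.8 and 72.6 CPM in WT and at 22.3 and 21.3 CPM in HSF1-pLVX cells. The replicates of each variant were close and the groups far apart. Its log2 fold change was -1.75 ± 0.0879 (SE) (adjusted p = 5.88e-10, edgeR), a 3.35-fold lower level. Its paralog LATS1, named here after its values were seen, was at 24.8 and 25.6 CPM in WT and at 25.2 and 24.7 CPM in HSF1-pLVX cells, where the groups overlapped (log2 fold change -0.01, adjusted p = 0.904). The ratio of LATS2 to LATS1 per kilobase was 4.61 and 4.40 in WT and 1.37 and 1.34 in HSF1-pLVX cells.

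AJUBA (ENSG00000129474.15, chromosome 14, 22971174 to 22982642), a LIM-domain protein of cell junctions that binds LATS kinases and restrains them, was at 88.6 and 81.9 CPM in WT and at 159 and 156 CPM in HSF1-pLVX cells. It was the member that rose, with a log2 fold change of 0.89 ± 0.0869 (SE) (adjusted p = 5.58e-07, edgeR), a 1.85-fold higher level. The related LIM-domain genes went the other way. LIMD1 had a log2 fold change of -0.53 (adjusted p = 1.42e-04) and WTIP one of -1.29 (adjusted p = 7.51e-08), LIMD1 being named after its values were seen.

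AMOTL1 and AMOTL2 encode angiomotin-like scaffolds that bind YAP and hold it outside the nucleus, and AMOTL2 is also a YAP target. AMOTL1 (ENSG00000166025.17, chromosome 11, 94706431 to 94876753) was at 483 and 439 CPM in WT and at 295 and 274 CPM in HSF1-pLVX cells, a log2 fold change of -0.69 ± 0.0960 (SE) (adjusted p = 1.81e-05, edgeR). AMOTL2 (ENSG00000114019.14, chromosome 3, 134355874 to 134375479) went from 338 and 331 CPM to 53.9 and 42.3 CPM. Its log2 fold change was -2.79 ± 0.114 (SE) (adjusted p = 8.32e-11, edgeR), a 6.94-fold lower level. Per kilobase the levels of the pair changed order: AMOTL1 was at 0.852 and 0.791 of AMOTL2 in WT and at 3.27 and 3.87 times its level in HSF1-pLVX cells. This change of order rests on the division by length. In CPM, AMOTL1 was above AMOTL2 in both variants, with 483 and 439 against 338 and 331 in WT. The third family member, AMOT, held 15 and 10 counts in WT and 0 and 1 in HSF1-pLVX cells, and was at least 4.94-fold lower against a floor of 3 counts per library, so its fitted change is not given.

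ANKRD1 (ENSG00000148677.6, chromosome 10, 90912096 to 90921276) encodes an ankyrin-repeat protein of muscle sarcomeres and nuclei and is widely used as a readout of YAP activity. It held 2723 and 3446 counts in WT and 21 and 4 in HSF1-pLVX cells, or 145 and 185 CPM against 0.836 and 0.201 CPM. The transcript was close to the limit of detection in HSF1-pLVX cells. The log2 fold change of -8.20 ± 0.235 (SE) (adjusted p = 4.12e-12, edgeR), rests on these few counts: it was -9.63 without HSF1-pLVX replicate 1 and -7.60 without HSF1-pLVX replicate 2, the adjusted p being 8.02e-12 and 0.00254. This was the largest change among the 10 genes.

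CYR61 and CTGF encode secreted matricellular proteins of the CCN family and are the other standard YAP readouts. CYR61 (ENSG00000142871.16, chromosome 1, 85580761 to 85583962) was at 427 and 500.1 CPM in WT and at 54.2 and 56.6 CPM in HSF1-pLVX cells. Its log2 fold change was -3.06 ± 0.107 (SE) (adjusted p = 2.18e-11, edgeR), an 8.37-fold lower level. CTGF (ENSG00000118523.5, chromosome 6, 131948176 to 131951373) was at 73.0 and 101 CPM in WT and at 22.5 and 25.6 CPM in HSF1-pLVX cells. The WT libraries differed more from each other than those of most members, and still lay well above the HSF1-pLVX libraries. The log2 fold change of CTGF was -1.86 ± 0.132 (SE) (adjusted p = 1.89e-08, edgeR), a 3.62-fold lower level. Per kilobase, CYR61 was at 5.57 and 4.73 times the level of CTGF in WT and at 2.30 and 2.11 times in HSF1-pLVX cells. The other 4 CCN genes listed, NOV, WISP1, WISP2 and WISP3, held at most 20 counts in any library and did not pass the filter.

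**Figure D3:**
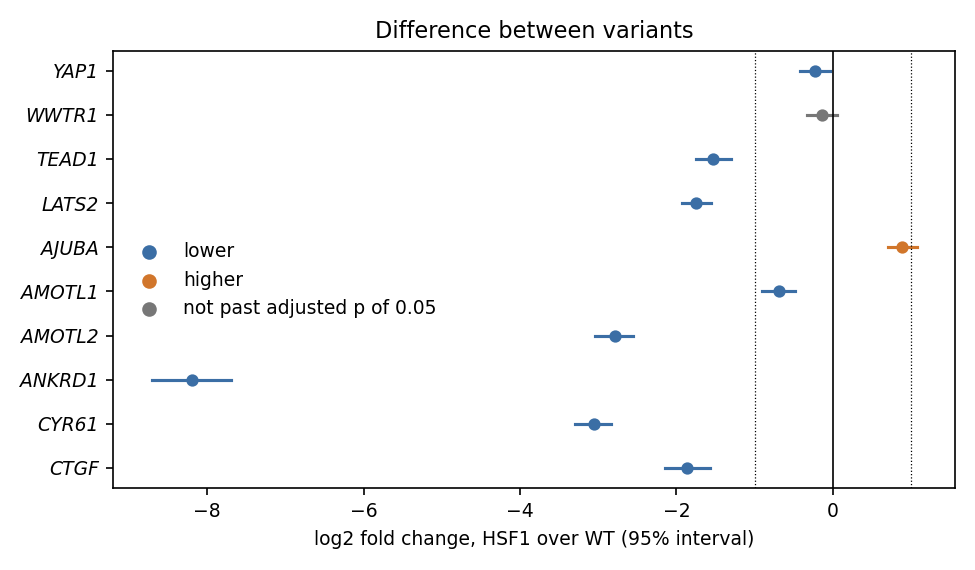
Log2 fold change of HSF1-pLVX over WT (horizontal axis) of the 10 genes from edgeR, with bars for 95% intervals and dotted lines at a 2-fold change. The intervals of ANKRD1, CYR61, AMOTL2, CTGF, LATS2 and TEAD1 lay wholly below -1, and those of YAP1 and WWTR1 within 0.42 of 0.

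The promoters of CTGF and ANKRD1 are shown because these targets fell and their promoters hold repeated copies of the TEAD core motif, GGAATG, searched on both strands. The sequences are from RefSeq on GRCh38.p14, read 5′ to 3′ on the strand of the gene, from position -250 to position -1 before the annotated start. The CTGF stretch lies at chr6:131951373-131951622 and the ANKRD1 stretch at chr10:90921088-90921337, both on the minus strand, and capitals mark the TEAD core. By the annotation of the counts, ANKRD1 starts further upstream, at 90921276, so most of its stretch lies inside the gene.
CTGF: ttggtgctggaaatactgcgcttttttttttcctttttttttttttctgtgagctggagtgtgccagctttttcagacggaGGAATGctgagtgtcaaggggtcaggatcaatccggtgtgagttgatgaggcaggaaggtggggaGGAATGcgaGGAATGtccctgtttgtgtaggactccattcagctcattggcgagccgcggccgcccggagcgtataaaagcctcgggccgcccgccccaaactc
ANKRD1: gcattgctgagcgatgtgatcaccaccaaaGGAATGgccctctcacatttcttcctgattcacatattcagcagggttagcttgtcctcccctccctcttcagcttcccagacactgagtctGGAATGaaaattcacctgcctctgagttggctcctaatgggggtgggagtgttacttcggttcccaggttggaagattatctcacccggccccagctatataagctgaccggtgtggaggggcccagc

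CTGF holds the motif 3 times, starting at -169, -104 and -95, and ANKRD1 holds it 2 times, starting at -220 and -128. Among 35116 RefSeq windows of 300 bases (250 before and 50 after a start), 14% hold the TEAD core on either strand, 1.37% hold it at least 2 times and 0.128% at least 3 times. The table has windows for 8 of the 10 genes, 11 windows in all, of which 6 hold the core. CYR61 and TEAD1 have no window in it. Matches were also present in AMOTL2, which fell, in YAP1, which changed little, and in AJUBA, which rose. They are shown as stretches of 30 bases with the core in capitals, which in AMOTL2 is on the other strand, for AMOTL2 (chr3:134374499-134374528, minus strand), YAP1 (chr11:102110273-102110302, plus strand) and AJUBA (chr14:22976884-22976913, minus strand).
AMOTL2: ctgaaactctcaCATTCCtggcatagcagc
YAP1: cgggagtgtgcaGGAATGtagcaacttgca
AJUBA: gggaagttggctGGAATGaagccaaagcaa

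For AMOTL2 and AJUBA the match lies in one of their windows (starting at -69 and -59) and not in the other, and for YAP1 it starts at -162. By the annotation of the counts, the AMOTL2 and AJUBA matches lie inside the genes. Whether the starts of these windows are used in the cells was not tested. LATS2 holds a match at position 10 after its start, and the windows of AMOTL1 and WWTR1 hold none. The core of the heat shock element, searched as GAANNTTC and as TTCNNGAA on both strands, was found in 13.5% of all windows and in 1 of the 11 windows, that of ANKRD1. There it starts at -123 and shares 1 base with the TEAD core before it. A match is a description of the letters and not a measure of binding.

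The order of the 10 genes per kilobase changed between the variants. In WT it was CYR61, ANKRD1, AMOTL2, AMOTL1, YAP1, CTGF, TEAD1, AJUBA, LATS2 and WWTR1, from 189 ± 21.1 to 4.34 ± 0.0629 CPM per kilobase (SD, n = 2), and only YAP1 and CTGF were neighbours whose libraries overlapped. In HSF1-pLVX cells it was YAP1, AMOTL1, AJUBA, CYR61, CTGF, TEAD1, AMOTL2, WWTR1, LATS2 and ANKRD1, from 33.3 ± 0.566 to 0.262 ± 0.227 CPM per kilobase. There TEAD1 overlapped with AMOTL2, and WWTR1 with LATS2. Per kilobase, ANKRD1 moved from near the top of the order to its end, and YAP1 from the middle to the top. These ranks rest on the division by length. In mean CPM in WT, ANKRD1 (165) was below AMOTL1 (461), AMOTL2 (334), TEAD1 (252) and YAP1 (246) as well as CYR61 (463). In HSF1-pLVX cells, AMOTL1 (285) was above YAP1 (209.7), and ANKRD1 (0.519) was again lowest.

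**Figure D4:**
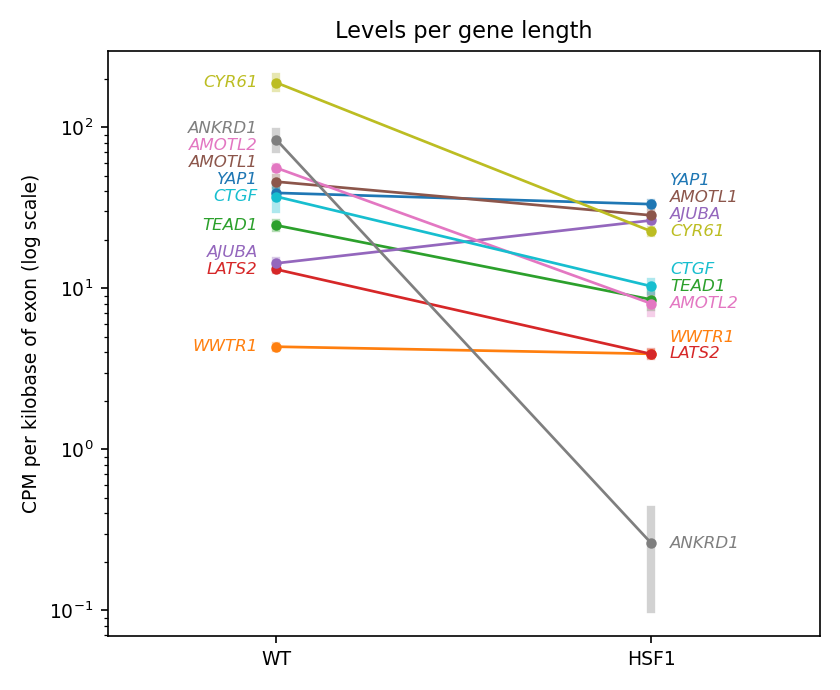
Group means of CPM per kilobase of exon (vertical log axis) of the 10 genes in WT and HSF1-pLVX (HSF1) cells, with lines joining a gene's means and shaded bars for the range of its 2 libraries. CYR61 was highest in WT at 189 CPM per kilobase, and YAP1 was highest in HSF1-pLVX cells at 33.3.

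Of 17 other YAP and TAZ target genes, 12 were lower and 2 higher in HSF1-pLVX cells, and 7 were at least 2-fold lower. These are shares of 70.6% lower and 11.8% higher, against 33.2% and 32.7% of all tested genes, of which 14.0% were at least 2-fold lower. This list and those below were chosen with earlier results of these data known, so their shares are descriptions and no independent test. The median log2 fold change was -0.87 over the list and 0.02 over all tested genes. The largest falls were those of TGFB2, a TGF-beta ligand, with a log2 fold change of -5.17 (adjusted p = 5.08e-12, edgeR), of CCDC80, a matrix protein, with -3.59 (adjusted p = 1.75e-10), and of IGFBP3, which binds insulin-like growth factors, with -3.56 (adjusted p = 2.14e-10). F3, the coagulation initiator tissue factor, had a log2 fold change of -1.92 and CRIM1 one of -1.65. TGFB2 was at 72.3 and 77.5 CPM in WT and at 2.55 and 1.51 CPM in HSF1-pLVX cells. The genes that rose, named after their values were seen, were ASAP1 (log2 fold change 0.68) and FJX1 (0.62), and the values of FOXF2, PTPN14 and NUAK2 lay between -0.06 and 0.07 and were not called.

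Of 18 upstream Hippo pathway genes, 12 were lower and 1 higher, 5 were at least 2-fold lower, and the median log2 fold change was -0.42. The list was thus 66.7% lower and 5.56% higher, where all tested genes were 33.2% lower, 32.7% higher and 14.0% at least 2-fold lower, with a median of 0.02. WWC1, the scaffold KIBRA, went from 406 and 378 CPM in WT to 65.1 and 51.5 CPM in HSF1-pLVX cells, a log2 fold change of -2.75 (adjusted p = 1.05e-10, edgeR). NF2, the membrane-linked activator merlin, had a log2 fold change of -1.47 (adjusted p = 3.33e-09), the kinase gene STK3 one of -1.28, FRMD6 one of -1.09 and WWC2 one of -1.01. The kinase gene STK4 was at 49.5 and 46.1 CPM in WT and 51.5 and 46.7 CPM in HSF1-pLVX cells, groups that overlapped. TAOK3, the gene that was higher (log2 fold change 0.29, adjusted p = 0.00650, edgeR), was no longer called without WT replicate 2 or HSF1-pLVX replicate 2 (adjusted p of 0.0532 and 0.0682). STK4 and TAOK3 were named after their values were seen.

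Of 16 TEAD partners and paralogs of the members, 11 passed the filter, of which 8 were lower, 1 (TEAD4) higher and 4 at least 2-fold lower, with a median log2 fold change of -0.77. Of those that passed, 72.7% were lower and 9.09% higher, beside 33.2% and 32.7% of all tested genes, of which 14.0% were at least 2-fold lower and whose median was 0.02. Vestigial-like proteins bind TEAD factors in place of YAP and TAZ. VGLL1 went from 47.0 and 41.5 CPM in WT to 5.74 and 4.03 CPM in HSF1-pLVX cells, a log2 fold change of -3.16 (adjusted p = 1.87e-10, edgeR), and VGLL3 from 179.8 and 188 to 34.5 and 21.4 CPM, one of -2.71 (adjusted p = 2.00e-09). VGLL4, a repressor of TEAD activity named after its values were seen, was at 39.0 and 34.8 CPM in WT and at 38.6 in both HSF1-pLVX libraries, and was not called (adjusted p = 0.552).

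**Figure D5:**
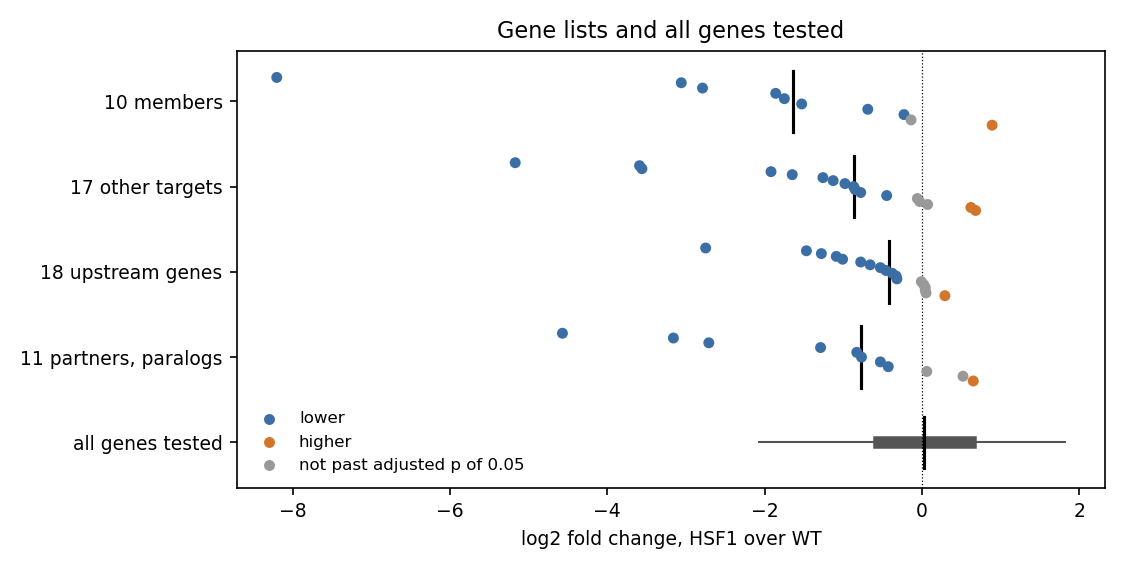
Log2 fold change of HSF1-pLVX over WT (horizontal axis) of each tested gene of 4 lists, with black bars for list medians; the bottom line shows all 15830 tested genes from the 5th to the 95th percentile, with a thick part for the middle quartiles. The list medians were -1.64, -0.87, -0.42 and -0.77, against 0.02 for all tested genes, and AMOT is drawn at its fitted value although its HSF1-pLVX libraries were at the floor.

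The genes whose pattern over the 4 libraries was most like that of ANKRD1, by the root mean square difference of centred log2 CPM, were PSG2 (0.496), REEP1 (0.505) and KRT34 (0.556). They held between 378 and 470 counts in the WT libraries and at most 2 in any HSF1-pLVX library. With 2 libraries a variant, this likeness mostly shows the size of the difference between variants.

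The genes overlapping the members held few counts. This does not bound the reads shared with them, since how shared reads were counted is not given in the sources used here. WWTR1 shares 9.45% of its exon bases with WWTR1-AS1 on the opposite strand, which held between 1 and 7 counts, and CTGF shares 8.34% with an antisense gene that held at most 4. AMOTL2 shares 3.13% with the pseudogene RPL39P5 on its own strand, which held 5 and 18 counts in WT and 0 in HSF1-pLVX cells. The antisense genes overlapping YAP1 (9.975% of its exon bases) and AMOTL1 (4.943%) held 0 counts in every library. Whether the counting used strand is not given in the sources used here, so reads of a gene and of an antisense partner may not have been told apart.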

How the data were processed

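The authors aligned paired-end reads of total RNA depleted of ribosomal RNA to hg38 with HISAT2 2.0.5, processed them with SAMtools 1.13 and deposited raw counts per gene from FeatureCounts 1.6.5, one column per library. Their second table, log2-like values normalized with DESeq2 1.32.0 by the authors, has a floor of 3.118 and served only as an alternative. The transformation is not given in the sources used here.

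Symbols came from GENCODE release 44 and RefSeq synonyms, and lengths and coordinates from the count table. The test on the counts was that of edgeR 4.0.16, run in R 4.3.3 (TMM, filterByExpr defaults, quasi-likelihood test, no replicate block). Standard errors were derived from the test statistic. DESeq2 1.42.0 was an alternative. Other alternatives changed normalization, filter, design and threshold, or left out each library. The members and lists were chosen with earlier results of these data known. Of list genes, those at least 2-fold changed and called were named (up to 5 a direction), with the TEAD family. The genes most like the member with the largest change were named by the smallest difference of log2 CPM (prior count 2). In a simulation of the comparison over 15375 genes, 200 of them changed, 92.2% were recovered and 6.58% of calls were false. Far fewer genes changed in it than the 65.9% called in the data, so these rates need not hold for the data. Small changes such as that of YAP1 were not simulated. The libraries of a pair differed by more than sampling noise (chi-square per degree of freedom 6.623 for WT and 8.041 for HSF1-pLVX). No protein sequences were used.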

Additional observations from a re-analysis of the deposited data

How the results depend on the processing

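All 110 values of the 10 genes under the alternatives kept their direction, and besides YAP1 no member's call changed under the 10 alternatives with a test. For YAP1 the call held with DESeq2's size factors, the CPM filter and DESeq2's Wald test, and was lost under the other 7. The number of members lower was 7 or 8 under the alternatives that keep the threshold and 6 with a 2-fold change required, which also took the number higher from 1 to 0. The number of upstream Hippo genes higher was between 0 and 1 with each library left out in turn. In those fits a variant is left with 1 library, assumed to vary like the others. The difference in the TEAD1 share was -15.6 percentage points per length and -18.6 without division by length. Of 46 tested genes of the 3 other lists, 5 changed their call under an alternative that still tested them, each to not called. The CPM filter also removed AMOT, which took the TEAD partners and paralogs called lower from 8 to 7. With the authors' normalized values the ANKRD1 difference was -7.18.

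Same-numbered libraries are not described as paired, and the correlation of how they deviate from their group mean was 0.000143 (15830 genes) and -0.113 (9672 genes above 8 CPM). With the replicate block, 7 members were lower and 1 higher, and YAP1 had an adjusted p of 0.0729. With the crossed pairing, added after seeing the data, 8 were lower and 1 higher. The few counts of ANKRD1 and AMOT in HSF1-pLVX cells limit the size of their folds.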
